A study of Mus musculus with 6 samples.

Results

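Natural and induced regulatory T cells restrain immune responses partly through secreted proteins and partly by turning extracellular ATP into adenosine. The genes described here are 9 linked to these routes, chosen by name. Il10, Ebi3, Fgl2 and Areg stand for secreted factors, and Entpd1, Nt5e, Adora2a and Ada for the making, sensing and breakdown of adenosine. Dpp4 is listed with them for the link of its protein to adenosine deaminase on human T cells. All probe sets with one of these names as their single annotated symbol were taken, which gave 15 probe sets for 7 genes, out of 45101 probe sets and 18193 named genes on the array. Areg, a growth factor linked to tissue repair, and Adora2a, the main adenosine receptor of T cells, had no annotated probe set in the table used and were not analysed here. Of the 15 probe sets, 13 passed the filter on low values, meaning a log2 level above 5.48 on 2 or more of the 6 arrays, 5.48 being the median over every probe set and array.

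The cells came from BALB/c Rag1-deficient mice, which make no T or B cells of their own. Each host had received wild-type natural regulatory T cells (nTreg) together with 500000 wild-type regulatory T cells induced in culture (iTreg), and the cells were recovered from spleens and mesenteric lymph nodes of 14 such mice after 125 days. The 3 populations were ex-iTreg cells (Thy1.1-positive, no EGFP), iTreg cells (Thy1.1-positive, EGFP-positive) and nTreg cells (Thy1.1-negative, EGFP-positive), where EGFP reports the transcription factor Foxp3 and Thy1.1 marks cells of induced origin. Each population was measured in 2 replicate pools, 1 Affymetrix Mouse430_2 array each. All arrays thus share the lymphopenic host and the transfer of both cell types. The series design pools the sorted cells of the mice, and nothing says that the pools of one population came from separate animals, so the p-values speak to the scatter between pools only, and that scatter may be technical.

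Interleukin-10, encoded by Il10, dampens antigen-presenting cells and effector T cells. Ebi3 encodes the beta chain shared by interleukin-27 and interleukin-35, and Fgl2 encodes a fibrinogen-like protein with a secreted, suppressive form. In the adenosine branch, CD39 (Entpd1) removes phosphates from ATP and ADP to leave AMP, CD73 (Nt5e) turns AMP into adenosine, and adenosine raises cyclic AMP in T cells through the A2A receptor. Adenosine deaminase (Ada) converts adenosine to inosine, and CD26 (Dpp4), a surface peptidase, anchors that enzyme on human T cells. Such anchoring was not examined in these mouse cells.

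Promoter windows from RefSeq (GRCm38.p6, from 250 bases before to 50 bases after a gene's start) were found for 7 of the 9 genes, in 8 windows. They are shown for Ebi3, Fgl2 and Ada, which were lower in ex-iTreg cells than in both other populations, and for Nt5e, which was called in neither comparison of ex-iTreg cells. Capitals mark matches, on either strand, to AP-1 (TGANTCA), STAT (TTCNNNGAA), forkhead (TGTTTNC), RUNX (TGTGGT), the cAMP response element (TGACGTCA) and the NF-kappaB motif.
Ebi3, chr17:55952373-55952672, plus strand: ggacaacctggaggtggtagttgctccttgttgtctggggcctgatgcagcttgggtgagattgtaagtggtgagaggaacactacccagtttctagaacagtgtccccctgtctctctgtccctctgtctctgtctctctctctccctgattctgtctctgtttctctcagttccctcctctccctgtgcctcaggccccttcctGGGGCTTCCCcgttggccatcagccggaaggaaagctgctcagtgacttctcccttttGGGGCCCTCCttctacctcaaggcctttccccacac
Fgl2, chr5:21372423-21372722, plus strand: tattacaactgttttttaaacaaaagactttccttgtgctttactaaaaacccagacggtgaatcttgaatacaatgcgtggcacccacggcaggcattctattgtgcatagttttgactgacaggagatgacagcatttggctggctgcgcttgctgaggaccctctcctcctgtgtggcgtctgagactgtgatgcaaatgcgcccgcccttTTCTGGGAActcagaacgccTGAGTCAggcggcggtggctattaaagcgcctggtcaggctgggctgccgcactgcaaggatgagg
Ada, chr2:163750190-163750489, minus strand: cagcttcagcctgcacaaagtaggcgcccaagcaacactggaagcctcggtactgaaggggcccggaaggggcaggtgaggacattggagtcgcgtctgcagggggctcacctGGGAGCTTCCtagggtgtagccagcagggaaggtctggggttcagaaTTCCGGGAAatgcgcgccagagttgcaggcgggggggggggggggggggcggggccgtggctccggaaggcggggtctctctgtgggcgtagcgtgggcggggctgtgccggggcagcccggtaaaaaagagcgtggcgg
Nt5e, chr9:88327359-88327658, plus strand: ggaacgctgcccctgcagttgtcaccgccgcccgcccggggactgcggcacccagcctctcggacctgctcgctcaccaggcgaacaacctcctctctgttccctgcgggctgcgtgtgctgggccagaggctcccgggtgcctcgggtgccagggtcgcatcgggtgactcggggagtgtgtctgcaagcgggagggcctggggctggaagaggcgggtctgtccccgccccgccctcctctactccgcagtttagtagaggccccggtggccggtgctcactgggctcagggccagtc
The Ebi3 window held the NF-kappaB motif at 2 places, starting at positions -44 and 15, counted from the gene's start as position 1. In the Fgl2 window an AP-1 match began at position -16 and a STAT match at position -36. The Ada window held a STAT match at position -90 and an NF-kappaB match at position -137. Nt5e and Dpp4 windows held none of these letters, and of the Entpd1 windows at its 2 annotated starts only the downstream one held a match, to RUNX at position 35. The Areg window held the cAMP response element at position -61. Among all 32851 windows of this length, 8.46% held the NF-kappaB motif, 7.81% AP-1, 8.3% STAT, 16.8% RUNX, 20.5% forkhead and 1.79% the cAMP response element. A match is a stretch of letters and not a measured binding site.

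The deposited values are log2 expression values, and a difference below is printed in log2 units with the standard error that limma estimated after the ± sign (n = 2 arrays in each population). A call is an adjusted p under 0.05 in limma, with Benjamini-Hochberg adjustment over all 23484 tested probe sets. An exact test of 2 arrays against 2 cannot reach a two-sided p below 0.33, so the calls rest on the spread that limma pools over probe sets. Replicate arrays correlated with r of 0.9968 to 0.9978 across probe sets, and arrays of different populations with r of 0.9831 to 0.991. All 12 annotated T cell identity genes, Cd3e and Cd4 among them, lay above the filter level. The annotated probe set of Foxp3, the defining factor of regulatory T cells, read between 3.99 and 4.29 in all 6 arrays, under that level, so it does not check the labels. Bacterial poly-A transcripts spiked in as labelling controls averaged 8.10 and 8.22 in ex-iTreg, 10.46 and 10.44 in iTreg, and 9.22 and 9.30 in nTreg arrays. The Gapdh control probe sets differed between the 3′ and 5′ ends by 0.00 and -0.05 in ex-iTreg, 0.39 and 0.52 in iTreg, and 0.15 and 0.15 in nTreg arrays. Both measures move with the populations, and their part in the differences below was not tested.

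**Figure D1:**
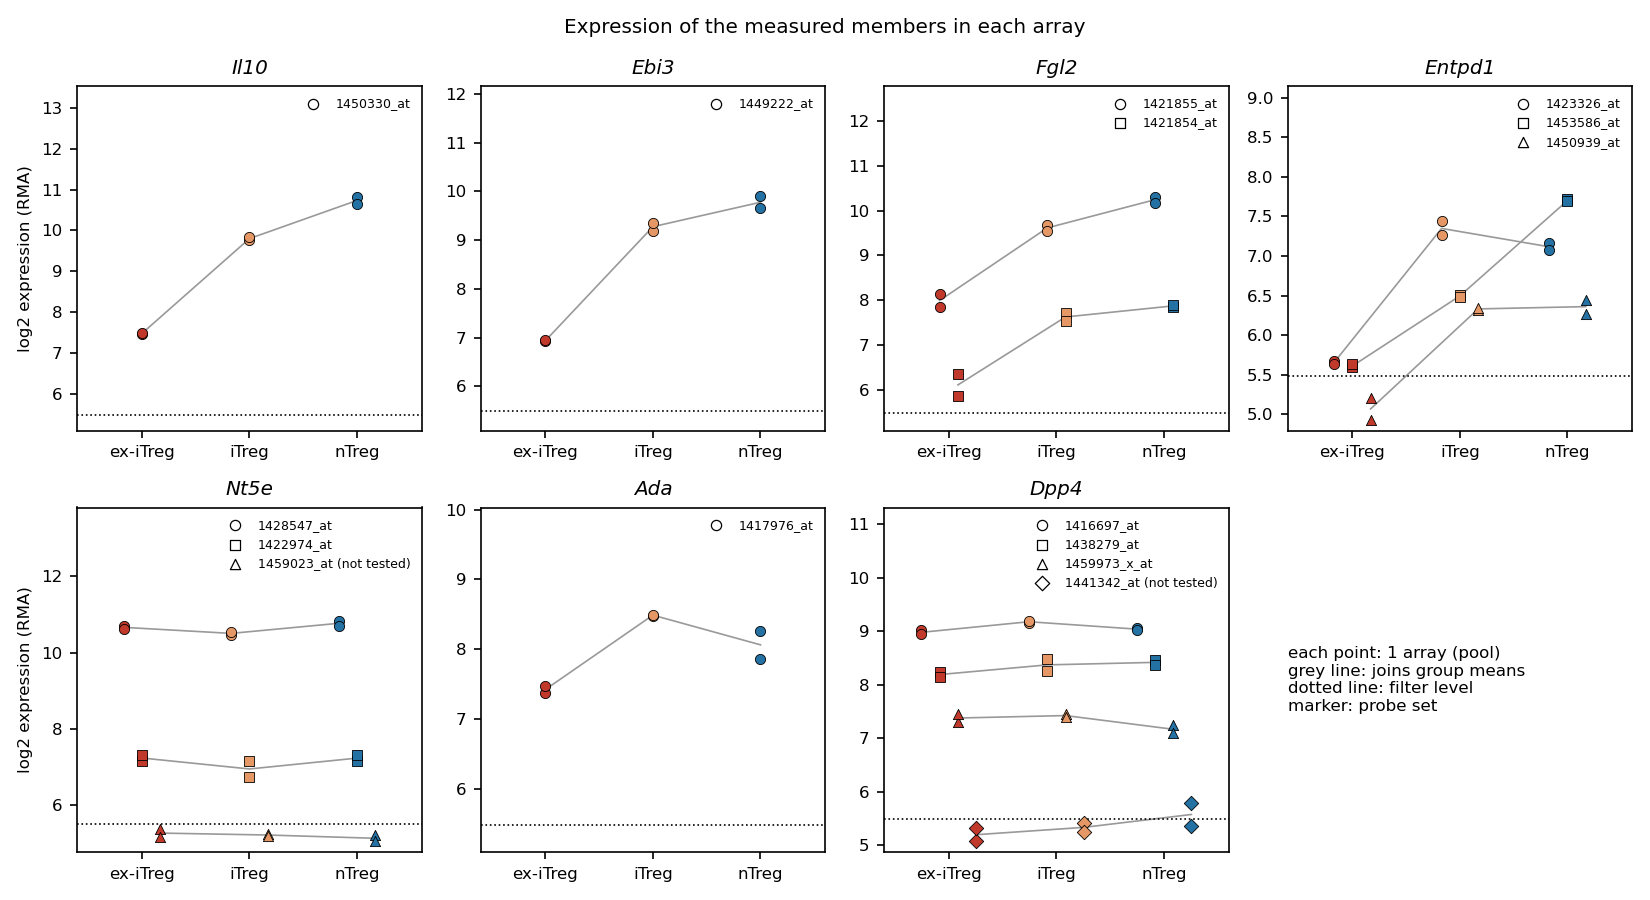
Log2 expression (vertical axis) of each annotated probe set of the 7 measured genes in ex-iTreg, iTreg and nTreg arrays (horizontal axis), 1 point per array, with a marker shape per probe set, grey lines joining group means and a dotted line at the filter level of 5.48. Il10 lies at 7.45 and 7.49 in ex-iTreg arrays, 9.76 and 9.83 in iTreg arrays and 10.81 and 10.65 in nTreg arrays, while the upper Nt5e probe set stays between 10.45 and 10.84 throughout.

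Among the secreted factors, Il10 was lowest in ex-iTreg cells, intermediate in iTreg cells and highest in nTreg cells. Its probe set (1450330_at) read 7.45 and 7.49 in ex-iTreg, 9.76 and 9.83 in iTreg, and 10.81 and 10.65 in nTreg arrays. No array of one population overlapped another population. On a linear scale, the geometric mean in ex-iTreg cells was 10.4% of that in nTreg cells and 19.9% of that in iTreg cells, and iTreg cells held 52.3% of the nTreg level. The differences were -3.26 ± 0.08 in ex-iTreg minus nTreg (adjusted p = 2.07e-06, limma), -2.33 ± 0.08 in ex-iTreg minus iTreg (adjusted p = 1.46e-05, limma) and -0.94 ± 0.08 in iTreg minus nTreg (adjusted p = 0.000651, limma). Ranked from the most negative, the first of these was number 50 and the second number 49 of 23484 probe sets, whereas the iTreg minus nTreg difference was number 463. These are RNA levels of sorted pools, in which fewer cells making a transcript and less transcript per cell cannot be told apart.

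Ebi3 (1449222_at) ordered the populations in the same way. It read 6.93 and 6.94 in ex-iTreg, 9.19 and 9.35 in iTreg, and 9.90 and 9.65 in nTreg arrays. The ex-iTreg level was 13.9% of the nTreg level, and the iTreg level 70.6% of it. Ebi3 fell by 2.34 ± 0.10 in ex-iTreg relative to iTreg cells, number 46 from the most negative, and fell by 2.84 ± 0.10 relative to nTreg cells (adjusted p = 4.06e-05 and 9.51e-06, limma). iTreg cells were lower than nTreg cells by a smaller step (-0.50 ± 0.10, adjusted p = 0.0149, limma). That last call was lost without iTreg pool 1, at -0.42 and adjusted p = 0.0741, within a range of 0.000172 to 0.0741 over the 13 alternative fits. Il12a, which encodes the chain that pairs with Ebi3 in interleukin-35, read between 4.16 and 4.48 in all 6 arrays, under the filter level, and was not tested.

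Fgl2 had a pair of probe sets, both made from the same accession. Probe set 1421855_at read 7.85 and 8.14 in ex-iTreg, 9.67 and 9.55 in iTreg, and 10.31 and 10.18 in nTreg arrays. Probe set 1421854_at read 5.87 and 6.35 in ex-iTreg, 7.72 and 7.54 in iTreg, and 7.85 and 7.90 in nTreg arrays. Both put ex-iTreg cells lowest, with no overlap between populations. On 1421855_at Fgl2 fell by 1.62 ± 0.11 in ex-iTreg relative to iTreg cells and fell by 2.25 ± 0.11 relative to nTreg cells (adjusted p = 0.0002 and 3.2e-05, limma); on 1421854_at it fell by 1.52 ± 0.16 and fell by 1.76 ± 0.16 (adjusted p = 0.000869 and 0.000349, limma). The probe sets parted in iTreg minus nTreg. 1421855_at was lower at -0.63 ± 0.11 (adjusted p = 0.0092, limma), a call lost without iTreg pool 2 at adjusted p = 0.0555 (range 2.68e-05 to 0.0555 over 13 alternatives), and 1421854_at differed by -0.25 ± 0.16 (95% interval -0.62 to 0.13, adjusted p = 0.281, limma).

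Entpd1, which encodes CD39, was lower in ex-iTreg cells than in both other populations on all 3 of its probe sets. The probe set with the highest mean (1423326_at) read 5.68 and 5.63 in ex-iTreg, 7.44 and 7.26 in iTreg, and 7.16 and 7.08 in nTreg arrays. Ex-iTreg arrays lay far below the rest, close to the filter level, and iTreg arrays lay a little above nTreg arrays. It fell by 1.70 ± 0.08 in ex-iTreg relative to iTreg cells and fell by 1.46 ± 0.08 relative to nTreg cells (adjusted p = 6.01e-05 and 5.81e-05, limma), which left ex-iTreg cells at 30.9% of the iTreg and 36.3% of the nTreg level. Probe set 1450939_at, made from the same accession, read 4.93 and 5.21 in ex-iTreg, 6.32 and 6.34 in iTreg, and 6.45 and 6.27 in nTreg arrays. Its ex-iTreg values lie under the filter level, so the sizes of its differences of -1.26 ± 0.11 from iTreg and -1.29 ± 0.11 from nTreg cells are not resolved (adjusted p = 0.000497 and 0.000303, limma).

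The remaining Entpd1 probe set (1453586_at), made from another accession, gave a different order for iTreg cells. It read 5.60 and 5.63 in ex-iTreg, 6.51 and 6.48 in iTreg, and 7.72 and 7.69 in nTreg arrays, so that iTreg arrays stood midway. Here iTreg cells were 2.31-fold lower than nTreg cells (-1.21 ± 0.06, 95% interval -1.35 to -1.06, adjusted p = 0.000133, limma). In the same comparison 1423326_at differed by 0.23 ± 0.08 (95% interval 0.03 to 0.44, adjusted p = 0.0838, limma) and 1450939_at by -0.03 ± 0.11 (95% interval -0.30 to 0.24, adjusted p = 0.867, limma). The iTreg to nTreg relation of Entpd1 therefore depends on the probe set read, and the position of these probe sets along the transcript was not analysed here. Against ex-iTreg cells the sign did not depend on it: ex-iTreg minus iTreg was -0.89 ± 0.06 and ex-iTreg minus nTreg -2.09 ± 0.06 on 1453586_at (adjusted p = 0.000205 and 4.44e-06, limma).

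Nt5e, encoding CD73, the enzyme after CD39 in the same chain, was called in neither comparison of ex-iTreg cells. Probe set 1428547_at read 10.70 and 10.62 in ex-iTreg, 10.45 and 10.55 in iTreg, and 10.84 and 10.70 in nTreg arrays. Ex-iTreg and nTreg arrays overlapped, and their difference was -0.11 ± 0.08 with a 95% interval of -0.30 to 0.09 (adjusted p = 0.343, limma). Within that interval the ex-iTreg level lies between 0.814 and 1.06 times the nTreg level. Ex-iTreg minus iTreg was 0.16 ± 0.08, with an interval of -0.03 to 0.35 (adjusted p = 0.166, limma). iTreg minus nTreg was -0.26 ± 0.08 and just inside the threshold (adjusted p = 0.0493, limma); only 3 of 13 alternatives kept that call, with adjusted p from 0.00112 to 0.192. The second probe set (1422974_at) read 7.16 and 7.30 in ex-iTreg, 7.14 and 6.74 in iTreg, and 7.15 and 7.31 in nTreg arrays, and was called in no comparison. The third (1459023_at) lay between 5.04 and 5.36, under the filter level in every array.

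Ada, which removes adenosine, had its lowest level in ex-iTreg cells and its highest mean in iTreg cells. Its probe set (1417976_at) read 7.37 and 7.47 in ex-iTreg, 8.48 and 8.49 in iTreg, and 8.26 and 7.86 in nTreg arrays. The nTreg pools differed from each other by more than the pools of the other populations did. Ada fell by 1.07 ± 0.13 in ex-iTreg relative to iTreg cells, a 2.1-fold difference, and fell by 0.64 ± 0.13 relative to nTreg cells (adjusted p = 0.00159 and 0.0101, limma). The call against nTreg cells was lost without ex-iTreg pool 1 (adjusted p = 0.0644; range over 13 alternatives 0.000115 to 0.0644). iTreg minus nTreg was 0.43 ± 0.13 with a 95% interval of 0.11 to 0.74, just outside the threshold (adjusted p = 0.0512, limma), and 4 of 13 alternatives placed it inside, with adjusted p from 0.00504 to 0.165.

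Dpp4, encoding CD26, gave no call on any of its 3 tested probe sets. The one with the highest mean (1416697_at) read 9.02 and 8.94 in ex-iTreg, 9.15 and 9.20 in iTreg, and 9.06 and 9.02 in nTreg arrays. Ex-iTreg minus nTreg was -0.06 ± 0.07 (95% interval -0.22 to 0.10), ex-iTreg minus iTreg -0.20 ± 0.07 (-0.36 to -0.04) and iTreg minus nTreg 0.14 ± 0.07 (-0.02 to 0.30), with adjusted p of 0.532, 0.0609 and 0.172 in limma. Over all 3 probe sets the differences between populations ran from -0.23 to 0.26, and 1459973_x_at, whose suffix marks possible cross-hybridisation, had its highest mean in iTreg cells (7.42) and its lowest in nTreg cells (7.17). The fourth probe set (1441342_at) passed the filter level in 1 array only and was not tested.

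**Figure D2:**
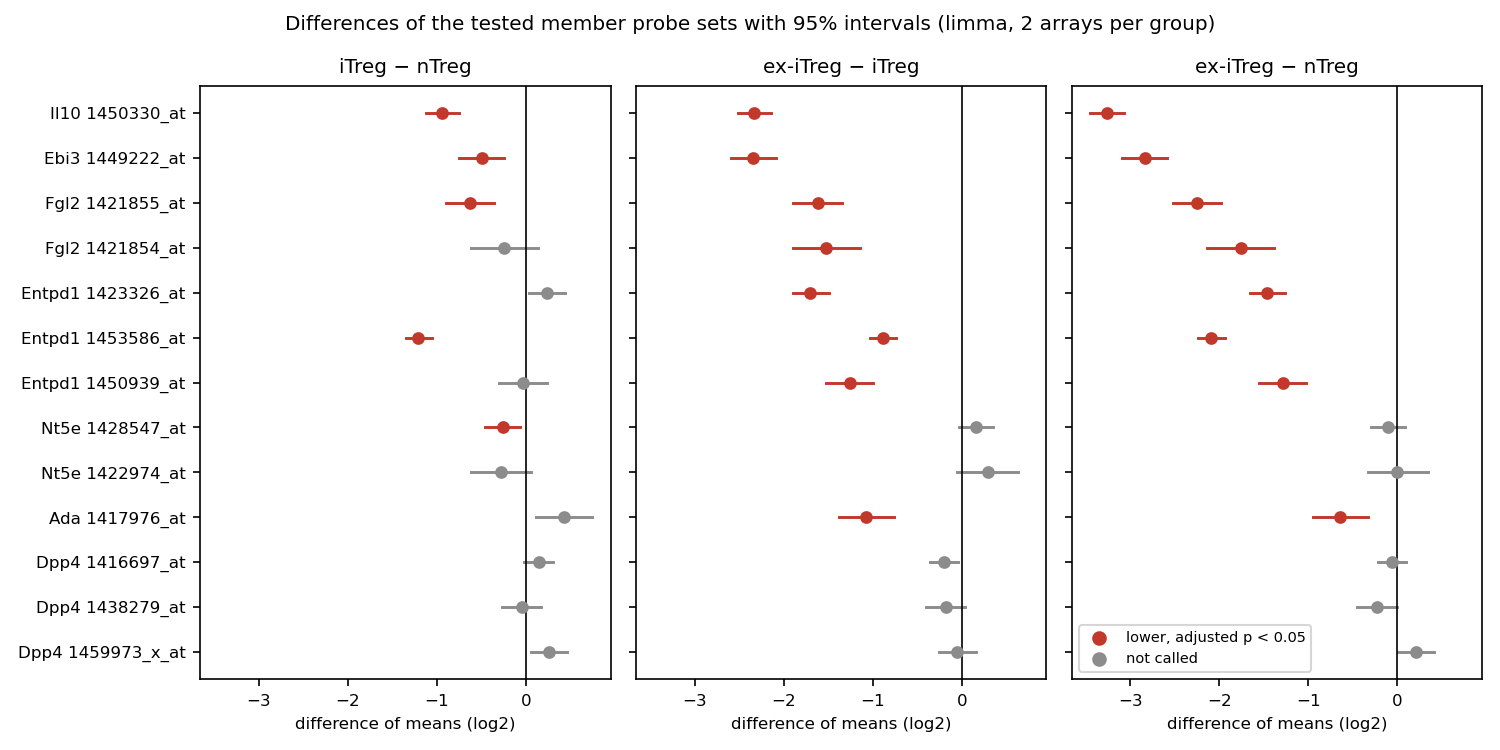
Differences of group means in log2 units (horizontal axis) for the 13 tested probe sets (vertical axis) in iTreg minus nTreg, ex-iTreg minus iTreg and ex-iTreg minus nTreg, with points for the estimate, bars for the 95% interval from limma and red for calls. In both comparisons of ex-iTreg cells the 8 probe sets of Il10, Ebi3, Fgl2, Entpd1 and Ada lie to the left of 0, and those of Nt5e and Dpp4 are not called.

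Counted together, 8 of 13 tested probe sets were lower and 0 higher in ex-iTreg minus iTreg, where 37.0% of all tested probe sets were called in either direction, 19.3% were called lower and 17.7% higher. Of the 8, 7 differed at least 2-fold, against 1.94% of all tested probe sets with a called fall of that size. In ex-iTreg minus nTreg the counts were again 8 lower and 0 higher, with 7 at least 2-fold lower, beside 36.4% called in either direction, 18.4% called lower, 18.1% called higher and 3.5% at least 2-fold lower among all. In iTreg minus nTreg 5 of 13 were lower and 0 higher, beside 29.1% called, 14.5% called lower and 14.6% called higher, and 1 of the 5, the Entpd1 probe set 1453586_at, was at least 2-fold lower, as were 1.72% of all. The median difference over the 13 was -1.07, -1.29 and -0.25 in these 3 comparisons, against 0.00, 0.03 and 0.02 over all tested probe sets. The lower calls include repeat readings of Fgl2 and Entpd1. On the probe set with the highest mean, 5, 5 and 4 of 7 genes were lower and 0 higher, in the same order. Of these genes, 5, 4 and 0 were at least 2-fold lower. The 2-fold counts of probe sets include Entpd1 1450939_at in both comparisons of ex-iTreg cells. Its differences there, -1.26 and -1.29, are not resolved in size. The comparisons share arrays, and the members were chosen with earlier results of these data known, so these counts describe the members only. Pools of the compared populations did not overlap for 12, 10 and 11 of the 13, and for 71.8%, 69.4% and 65.7% of all tested probe sets. The shares of all tested probe sets called lower and called higher, given above, also stand beside the counts of the lists below. Those lists take 1 probe set per gene, the one with the highest mean, so the unit of their counts differs from that of the shares.

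Each measured gene was set beside the 2 other named genes whose 6 array values, centred on their own mean, lay closest to its own. For Il10 these were Ikzf4, a transcription factor of the Ikaros family, at a root mean square distance of 0.07, and Atp6v0d2, a subunit of the vacuolar proton pump, at 0.11. Ikzf4 read 7.38 and 7.33 in ex-iTreg, 9.53 and 9.63 in iTreg, and 10.67 and 10.61 in nTreg arrays. For Ebi3 they were Neb and Phlpp1 (0.10 and 0.11), and for Fgl2 Il10ra, the ligand-binding chain of the interleukin-10 receptor, and Tgfbr1, a TGF-beta receptor chain (0.08 each). The Entpd1 probe set 1423326_at lay closest to Gbp3, an interferon-induced GTPase, and Lrrc61 (0.06 and 0.07). Ada lay closest to Ltf, which encodes lactoferrin, and Stat2 (0.08 and 0.09). The nearest genes of Nt5e, Sec62 and Pcm1 (0.03 each), and of Dpp4, Ndufa7 and Ocel1 (0.01 each), show little change, and any genes that vary little lie close to each other on this measure.

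The wider adenosine and extracellular nucleotide list held 36 further genes, of which 26 were annotated and 17 tested. In ex-iTreg minus iTreg 8 were lower and 1 higher, in ex-iTreg minus nTreg 4 were lower and 3 higher, and in iTreg minus nTreg 1 was lower and 6 higher, with medians of -0.24, -0.01 and 0.16. Single arrays moved these counts: the 9 called in ex-iTreg minus iTreg became 5 without ex-iTreg pool 1 or 2, the 7 in ex-iTreg minus nTreg became 3 without ex-iTreg pool 1 and 4 without pool 2, and the 7 in iTreg minus nTreg became 4 without iTreg pool 1 or 2. The AMP deaminase Ampd3 fell by 0.79 ± 0.10 in ex-iTreg relative to iTreg cells and was higher by 0.78 ± 0.10 in iTreg relative to nTreg cells (adjusted p = 0.00159 and 0.00251, limma). Ampd1 moved the same way (-1.11 and 0.99), but its ex-iTreg and nTreg means of 4.56 and 4.68 lie under the filter level. Panx1, a membrane channel that releases ATP, fell by 0.66 ± 0.07 in ex-iTreg relative to iTreg cells and fell by 0.80 ± 0.07 relative to nTreg cells (adjusted p = 0.000826 and 0.000271, limma). Of 4 tested relatives of Entpd1, 2 were higher, 1 was lower and 1 was not called in ex-iTreg minus nTreg: Entpd5 was higher by 0.78 ± 0.08 and Entpd6 by 0.43 ± 0.07 in ex-iTreg relative to nTreg cells (adjusted p = 0.000728 and 0.00546, limma), and the 4 other tested Entpd5 probe sets were also called higher. Entpd7 fell by 0.26 ± 0.08 relative to nTreg cells and fell by 0.32 ± 0.08 relative to iTreg cells (adjusted p = 0.0414 and 0.0213, limma), with its other tested probe set also called lower in both comparisons, and Entpd2 differed by -0.18 ± 0.12 from nTreg cells (adjusted p = 0.285, limma). In iTreg relative to nTreg cells Entpd5 was higher by 0.51 ± 0.08 (adjusted p = 0.00649, limma). The adenosine receptor gene Adora3 read between 3.15 and 5.30 on its probe sets, under the filter level throughout.

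Cyclic AMP, the second messenger raised by adenosine, is broken down by phosphodiesterases. Of 26 genes in the list of cAMP signalling, 22 were tested; 7 were higher and 5 lower in ex-iTreg minus iTreg, 7 higher and 6 lower in ex-iTreg minus nTreg, and 4 higher and 7 lower in iTreg minus nTreg. The list medians were 0.01, -0.03 and -0.04. The 12 called in ex-iTreg minus iTreg became 6 without ex-iTreg pool 1, 7 without pool 2 and 7 with no filter, and the 11 in iTreg minus nTreg became 6 without iTreg pool 1 or 2 and 7 with no filter. The 3 called genes of the list with the largest differences in ex-iTreg minus iTreg were phosphodiesterases. Pde3b was higher by 2.50 ± 0.06, Pde7a by 2.09 ± 0.08 and Pde4d by 1.09 ± 0.08 in ex-iTreg relative to iTreg cells (adjusted p = 6.4e-06, 1.83e-05 and 0.000308, limma). Relative to nTreg cells Pde3b was higher by 4.89 ± 0.06 and Pde7a by 1.53 ± 0.08 in ex-iTreg cells (adjusted p = 6.77e-07 and 3.08e-05, limma), and Pde3b was also higher in iTreg than in nTreg cells, by 2.39 ± 0.06 (adjusted p = 3.19e-05, limma). Pde7a and Pde4d ran the other way in iTreg relative to nTreg cells (-0.55 and -0.62, adjusted p = 0.00352 and 0.00347, limma). The listed phosphodiesterases did not all rise in ex-iTreg cells. Pde8a was lower by 0.30 ± 0.08 relative to iTreg and by 0.60 ± 0.08 relative to nTreg cells (adjusted p = 0.0221 and 0.00155, limma). Pde4b was higher in both comparisons (0.28 and 0.40, adjusted p = 0.0176 and 0.00398, limma), and Pde4a was called in neither. Adcy6, an adenylyl cyclase that makes cyclic AMP, was higher by 1.15 ± 0.17 in ex-iTreg relative to nTreg cells (adjusted p = 0.00331, limma), whose mean of 5.46 lies under the filter level. Crem, a cAMP-responsive transcription factor, was lower in iTreg than in nTreg cells (-0.97 ± 0.08, adjusted p = 0.000507, limma).

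Regulators and receptors of interleukin-10 were lower in ex-iTreg cells in most cases. Of 22 listed genes 19 were tested, and the list was not split by whether a regulator raises or lowers Il10. In ex-iTreg minus nTreg 16 were lower and 0 higher, and in ex-iTreg minus iTreg 11 were lower and 0 higher. In iTreg minus nTreg 9 were lower and 2 higher, and the medians were -0.62, -0.48 and -0.21 in that order. Among all tested probe sets 18.4%, 19.3% and 14.5% were called lower in the same comparisons. The 11 called in iTreg minus nTreg became 7 without iTreg pool 1. Prdm1, encoding Blimp-1, a factor needed for Il10 expression in several T cell types, fell by 2.90 ± 0.07 in ex-iTreg relative to nTreg and fell by 2.11 ± 0.07 relative to iTreg cells (adjusted p = 2.36e-06 and 1.52e-05, limma). In iTreg relative to nTreg cells it was at -0.79 ± 0.07 (adjusted p = 0.000888, limma). Nfil3, a basic leucine zipper factor, fell by 2.25 ± 0.06 and the receptor gene Il10ra fell by 2.17 ± 0.08 in ex-iTreg relative to nTreg cells (adjusted p = 3.89e-06 and 1.21e-05, limma). Il10ra also fell by 1.50 ± 0.08, and Bcl3, an IkappaB family protein, fell by 1.55 ± 0.08, in ex-iTreg relative to iTreg cells (adjusted p = 9.78e-05 and 7.81e-05, limma). Nfil3 and Ahr, the aryl hydrocarbon receptor, were lower in iTreg than in nTreg cells (-0.97 and -0.80, adjusted p = 0.000294 and 0.00104, limma). Maf differed less, by -0.26 ± 0.07 in ex-iTreg minus nTreg and, without a call, by -0.18 ± 0.07 in ex-iTreg minus iTreg (adjusted p = 0.0314 and 0.0943, limma). Of its 5 other tested probe sets, 4 were called lower in the first comparison, and 3 lower and 1 higher in the second.

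**Figure D3:**
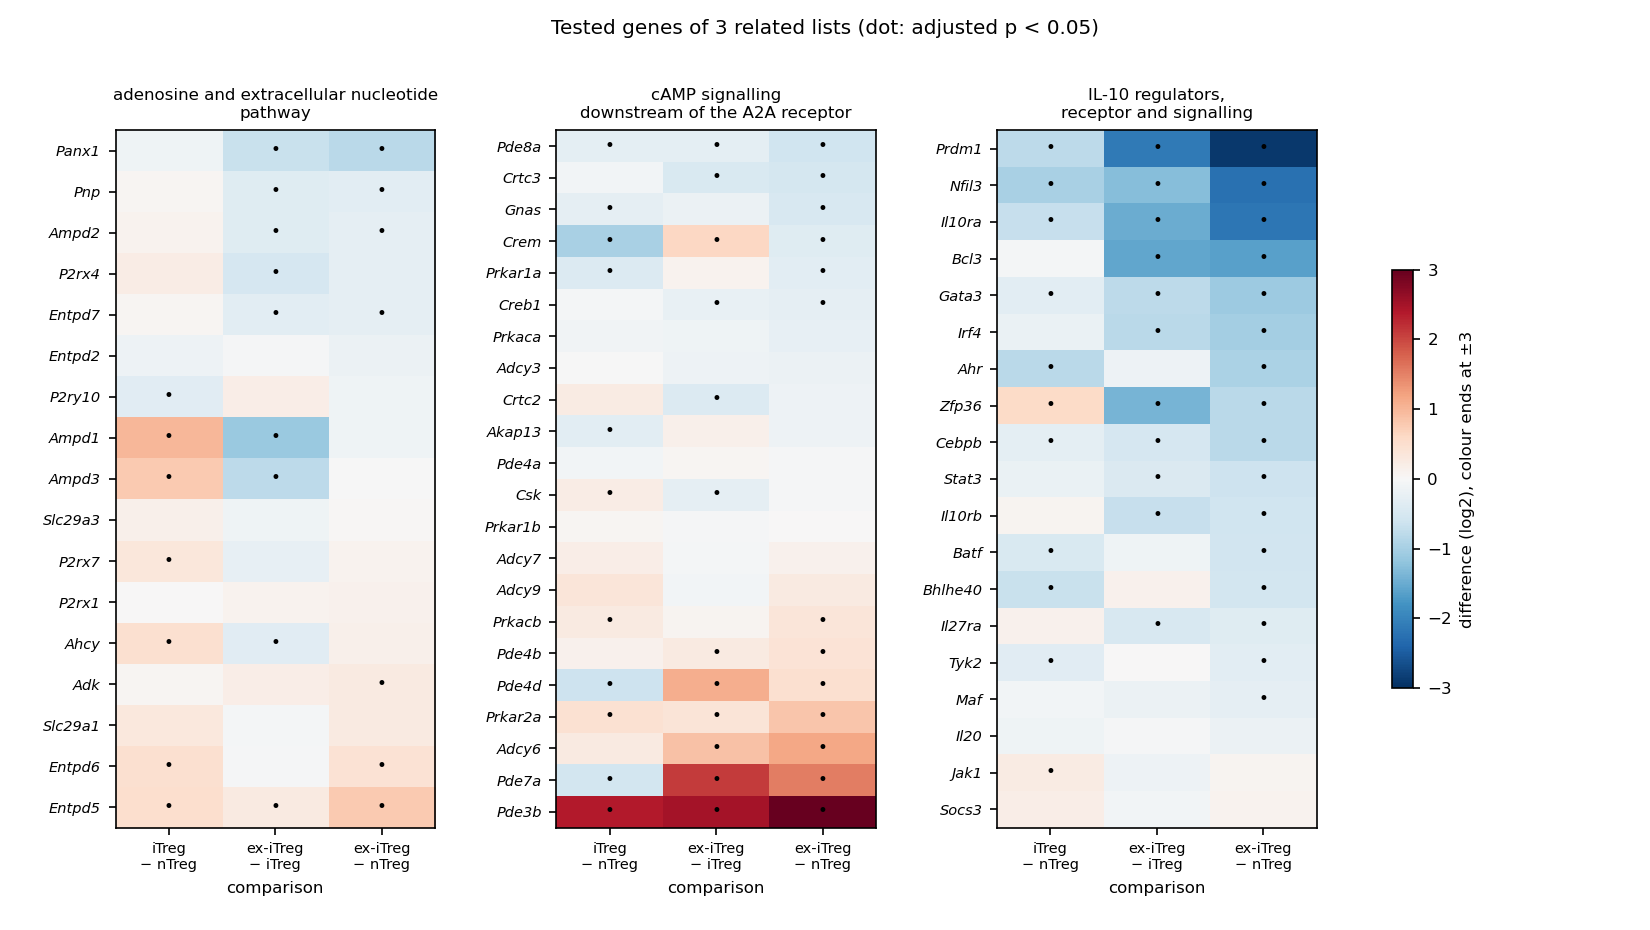
Differences in log2 units (colour, blue for lower and red for higher in the first-named population) of the tested genes of 3 lists (rows, ordered by ex-iTreg minus nTreg) in the 3 comparisons (columns), with a dot for an adjusted p under 0.05. Prdm1 (-2.90), Nfil3 (-2.25) and Il10ra (-2.17) lead the falls in ex-iTreg minus nTreg, and Pde3b (4.89, beyond the colour range) leads the rises.

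The list around interleukin-35 and interleukin-27 had 4 tested genes, the receptor genes Il27ra, Il6st and Il12rb1, and Stat4, which encodes a transcription factor. In ex-iTreg minus iTreg 2 were lower (Il12rb1 and Il27ra) and 0 higher. The same 2 were lower in ex-iTreg minus nTreg, where 1, Stat4, was higher. In iTreg minus nTreg 0 were lower and 3 higher (Il12rb1, Il6st and Stat4). The medians were -0.35, -0.16 and 0.26 in that order. The 3 called in iTreg minus nTreg became 1 with no filter, with only those 2 groups in the fit, with the replicate block, and when any array but nTreg pool 1 was left out. Il12rb1, a receptor chain for interleukin-12, fell by 1.38 ± 0.08 in ex-iTreg relative to iTreg cells (adjusted p = 0.000128, limma). Il27ra, the interleukin-27 receptor, fell by 0.48 ± 0.07 in the same comparison (adjusted p = 0.0025, limma). In the amphiregulin family list 8 of 16 genes were tested, with 2 lower and 2 higher in ex-iTreg minus iTreg, 2 lower and 1 higher in ex-iTreg minus nTreg, and 4 lower and 1 higher in iTreg minus nTreg, with medians of -0.07, -0.09 and -0.18. The 5 called in iTreg minus nTreg became 3 without iTreg pool 1 or 2 or nTreg pool 2. Erbb3, a receptor of that family, fell by 1.37 ± 0.08, and Adam17, the protease that sheds amphiregulin, fell by 0.72 ± 0.06, in ex-iTreg relative to nTreg cells (adjusted p = 5.82e-05 and 0.000361, limma). The list around Fgl2 had 4 tested genes, the Fc receptor genes Fcgr2b and Fcgr3, and Lag3 and Tnfaip8l2. In ex-iTreg minus iTreg 2 were lower (Lag3 and Fcgr3) and 0 higher. In ex-iTreg minus nTreg 2 were lower (Lag3 and Fcgr2b) and 2 higher (Fcgr3 and Tnfaip8l2). In iTreg minus nTreg 1 was lower (Fcgr2b) and 2 were higher (Fcgr3 and Tnfaip8l2). Medians were -0.26, 0.01 and 0.31 in that order. Lag3, an inhibitory receptor that binds fibrinogen-like protein 1, fell by 0.80 ± 0.08 in ex-iTreg relative to iTreg cells and fell by 0.79 ± 0.08 relative to nTreg cells (adjusted p = 0.000758 and 0.000586, limma). Fcgr3, which encodes an activating Fc receptor of myeloid cells, was lower in ex-iTreg relative to iTreg cells (-0.45 ± 0.06) and higher by 0.84 ± 0.06 in iTreg relative to nTreg cells (adjusted p = 0.00256 and 0.000417, limma). Among 11 tested other suppressive mediators, 11 were lower in ex-iTreg minus iTreg, 10 lower and 1 higher in ex-iTreg minus nTreg, and 5 lower and 1 higher in iTreg minus nTreg, with medians of -0.71, -1.16 and -0.10. Itgb8, an integrin chain that helps activate TGF-beta, had the largest difference in this list in both comparisons of ex-iTreg cells, -4.26 ± 0.10 from iTreg and -5.65 ± 0.10 from nTreg cells (adjusted p = 6.32e-06 and 1.13e-06, limma), sizes that are not resolved because the ex-iTreg mean of 3.70 lies under the filter level. Il2ra, the high-affinity interleukin-2 receptor chain, fell by 3.18 ± 0.08 in ex-iTreg relative to iTreg cells, and Nrp1, a semaphorin receptor abundant on nTreg cells, fell by 2.46 ± 0.13 (adjusted p = 5.98e-06 and 7.65e-05, limma).

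Fgl2 and Entpd1 are also made by macrophages, and Il10 and Ebi3 by several cell types of the myeloid and B lineages, so markers of these cells were read beside them. Of 17 tested myeloid markers among 19 listed, 16 were lower and 0 higher in ex-iTreg minus iTreg, 2 lower and 8 higher in ex-iTreg minus nTreg, and 0 lower and 14 higher in iTreg minus nTreg, with medians of -0.67, 0.36 and 0.83. The summed linear level of the 19 was 9380 and 9438 in ex-iTreg, 13400 and 13210 in iTreg, and 10850 and 10410 in nTreg arrays. Ctss made up the largest part of this sum, at 12.21 and 12.25 in ex-iTreg, 12.56 and 12.52 in iTreg, and 12.68 and 12.63 in nTreg arrays. The sum thus put ex-iTreg below nTreg arrays, whereas more of the markers were called higher than lower in that comparison. Itgam alone lay under the filter level in every array, while Adgre1, encoding a macrophage surface antigen, read 6.34 and 6.51 in ex-iTreg, 7.34 and 7.47 in iTreg, and 6.01 and 5.87 in nTreg arrays. Cybb, a subunit of the phagocyte oxidase, read 7.95 and 7.84 in ex-iTreg, 8.88 and 8.95 in iTreg, and 9.14 and 8.96 in nTreg arrays. Members of the list thus differed in order, and Cybb and Ctss, the 2 called lower in ex-iTreg minus nTreg, had the same order of group means as Il10, Ebi3 and Fgl2. Ada and Entpd1 1423326_at have the highest mean in iTreg arrays, as the myeloid sum does. Summed B cell markers, of which 5 were tested, read 3378 and 3343 in ex-iTreg, 6080 and 6125 in iTreg, and 6091 and 6044 in nTreg arrays. Ighm had the highest level of them and carried most of this sum. It read 11.13 and 11.06 in ex-iTreg, 12.14 and 12.17 in iTreg, and 12.21 and 12.20 in nTreg arrays. Of its 4 other tested probe sets, 1 was also called lower and 1 was called higher in ex-iTreg minus iTreg. In this list 4 genes were lower and 0 higher in ex-iTreg minus iTreg, 3 lower and 0 higher in ex-iTreg minus nTreg, and 2 lower and 1 higher in iTreg minus nTreg, with medians of -0.37, -1.12 and -0.28. Cd79a, Pax5, Blnk and Cr2 lay under the filter level in every array. The dendritic cell sum was 342.5 and 345.4 in ex-iTreg, 368.7 and 356.7 in iTreg, and 325.9 and 339.6 in nTreg arrays. On the probe sets summed, 4 of 8 annotated markers lay under the filter level throughout. Of 4 tested, 1 was lower and 0 higher in each comparison of ex-iTreg cells, Siglech relative to iTreg and Zbtb46 relative to nTreg cells. In iTreg minus nTreg 1 was lower and 1 higher. Zbtb46 belongs to both groups of 4, as its tested probe set is not the one summed. Most of the 6 tested CD8 T and NK cell markers ran the other way. Of these, 5 were higher and 1 lower in ex-iTreg minus iTreg, and 4 higher and 1 lower in ex-iTreg minus nTreg. In iTreg minus nTreg 2 were higher and 2 lower, and the medians were 1.81, 1.85 and -0.03 in that order of comparisons. Klrk1 (7.83 and 7.80 in ex-iTreg arrays) and Klrc1 (5.67 and 5.77) passed the filter only through the ex-iTreg arrays. The filter thus fixed their direction against both other populations, and the counts and medians include them. The lectin-like receptor gene Klrd1 read 8.49 and 8.54 in ex-iTreg, 5.50 and 5.52 in iTreg, and 4.67 and 4.52 in nTreg arrays, the nTreg values lying under the filter level. Cd8a lay between 5.75 and 6.22 in all arrays. The marker called lower was Cd8b1, at -0.75 ± 0.10 from iTreg and -1.84 ± 0.10 from nTreg cells (adjusted p = 0.00206 and 4.3e-05, limma). Its ex-iTreg mean of 5.27 lies under the filter level. Of 3 tested erythroid markers 2 were lower in ex-iTreg minus iTreg, 0 were called in ex-iTreg minus nTreg and 2 were higher in iTreg minus nTreg, and of 8 annotated stromal and endothelial markers 6 lay under the filter level in every array. The part of these cells in the members' differences was not tested.

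**Figure D4:**
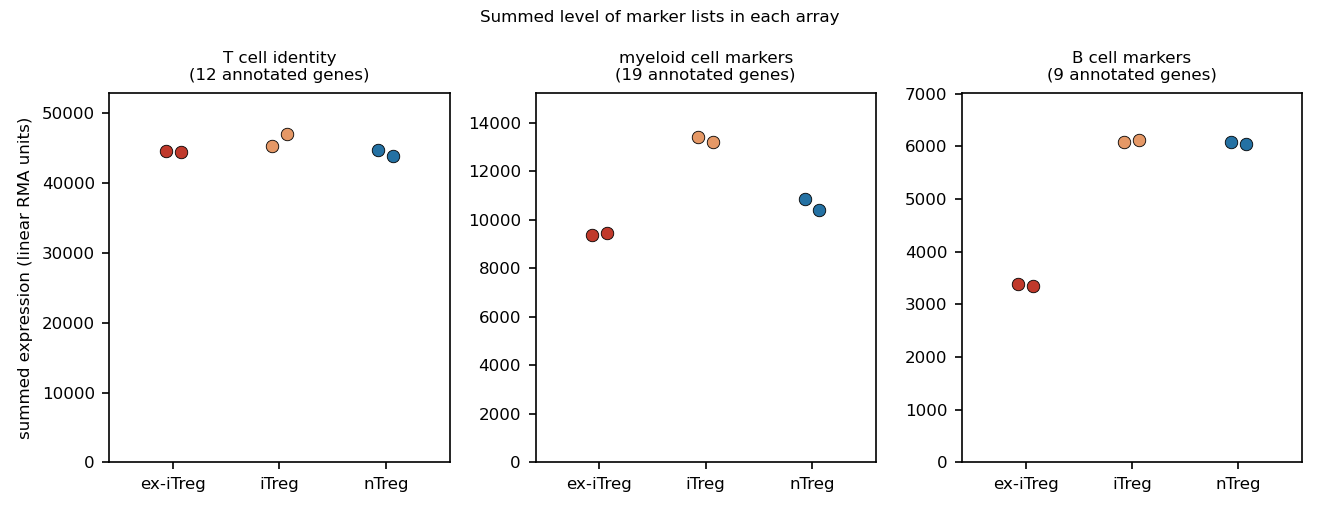
Summed expression in linear RMA units (vertical axis, from 0) of T cell identity, myeloid and B cell markers in ex-iTreg, iTreg and nTreg arrays (horizontal axis), 1 point per array. The myeloid sum is highest in iTreg arrays (13400 and 13210), and the B cell sum is lowest in ex-iTreg arrays (3378 and 3343). Ctss makes up the largest part of the myeloid sum, and Ighm that of the B cell sum.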

How the data were processed

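Expression was measured on 6 Affymetrix Mouse430_2 arrays, 2 replicate pools each of ex-iTreg, iTreg and nTreg cells, grouped by the labels. The values deposited by the authors are log2 expression values, and the submitters' processing notes name RMA for them; the sources used here name neither program nor version. The median of an array ranged over 5.47 to 5.49. An array's own value carries no count, so the number of arrays limits the precision.

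Probe sets were named through the platform annotation, with 1 symbol for 34945 of 45037 non-control probe sets, several for 932 and none for 9160; probe sets with several were not named. Tested were the 23484 probe sets above 5.48 in at least 2 arrays. A group-means model was fitted to them with limma 3.58.1 in R 4.3.3 (3 residual and 3.37 prior degrees of freedom) and tested on simulated data. A listed gene was read from its tested probe set with the highest mean. Marker sums used all annotated markers. The named genes are all members, 2 nearest genes per member (Riken and Gm models passed over), and up to 3 called genes per list and comparison with the largest differences. A few other listed genes and markers are named for their level or because they differ from their list. Members and lists were chosen with earlier results of these data known.

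The labels do not say whether pools with the same replicate number belong together. Pool 1 minus pool 2 correlated between populations at -0.04, -0.088 and -0.007, which cannot decide it, because pools that differ only by technical scatter could give the same values. Alternatives were other filters, normalizations, variance priors, sample sets, a replicate block, leaving out each array and a threshold of 0.01.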

Additional observations from a re-analysis of the deposited data

How the results depend on the processing

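Of 39 member tests (13 probe sets in 3 comparisons), 21 were called, and 17 of these stayed past the threshold in all 13 alternative fits, among them every call of Il10, every call of Fgl2 and Entpd1 in ex-iTreg minus iTreg and ex-iTreg minus nTreg, and Ebi3 in those comparisons. The 4 lost in at least 1 alternative were Ebi3, Fgl2 (1421855_at) and Nt5e (1428547_at) in iTreg minus nTreg and Ada in ex-iTreg minus nTreg, as given with each gene. Of the 18 not called, 8 were called in at least 1 alternative. With the replicate block the members called were 8, 8 and 4 in ex-iTreg minus iTreg, ex-iTreg minus nTreg and iTreg minus nTreg, against 8, 8 and 5, the one lost being Nt5e (adjusted p = 0.0765, limma), and 8011, 7814 and 5853 probe sets were called in all. At a threshold of 0.01, 4794, 4979 and 2936 probe sets were called in the same order of comparisons, and 3 member probe sets in iTreg minus nTreg. Leaving out 1 array gave between 4894 and 9112, 5167 and 7930, and 3399 and 5434 probe sets in that order, against 8694, 8558 and 6826, with a change of over 1.5 times without ex-iTreg pool 1 or 2 in ex-iTreg minus iTreg (5187 and 4894) and in ex-iTreg minus nTreg (5167 and 5235), without iTreg pool 2 in ex-iTreg minus iTreg (5687) and without iTreg pool 1 or 2 in iTreg minus nTreg (3987 and 3399). Member counts then ranged from 8 to 9, 7 to 8 and 3 to 5, the 3 being without iTreg pool 2. Counts of the related lists that moved by over 1.5 times without an array are given with each list; at a threshold of 0.01 the list counts in iTreg minus nTreg became 6 of 11 (cAMP), 7 of 11 (interleukin-10), 1 of 3 (interleukin-35 and interleukin-27) and 2 of 5 (amphiregulin), the cAMP count in ex-iTreg minus iTreg became 7 of 12, and the adenosine count in ex-iTreg minus nTreg became 3 of 7, or 4 with no filter. Signs turned only among differences that were not called. They did so for Entpd1 1450939_at in iTreg minus nTreg without nTreg pool 1 (0.06; -0.12 to 0.06 over all arrays left out), for Nt5e 1422974_at in ex-iTreg minus nTreg with arrays centred on their medians (-0.003) or without ex-iTreg pool 2 (-0.07) or nTreg pool 1 (-0.08; -0.08 to 0.09), for Dpp4 1438279_at in iTreg minus nTreg without iTreg pool 2 (0.06; -0.16 to 0.06) and for Dpp4 1459973_x_at in ex-iTreg minus iTreg without ex-iTreg pool 1 (0.03; -0.12 to 0.03). Where an array was left out, its partner was assumed to vary like the other groups. Probe sets under the filter level are not resolved from background, and the causes of these shifts were not tested.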
